A study of Canis lupus familiaris with 4 samples.

Results

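The 10 genes of the AP-1 and immediate-early group (*FOS*, *FOSB*, *FOSL1*, *FOSL2*, *JUN*, *JUNB*, *JUND*, *EGR1*, *IER2* and *IER3*) were examined in MDCK strain II cells, a canine kidney epithelial line. They were chosen by gene symbol, and every probe set annotated with that symbol alone was used. Of the 10 genes, 9 had such a probe set, out of 15115 genes in the table, and together they had 14 of its 42924 probe sets. *JUND* had none and was dropped. The arrays covered 4 conditions with 1 array each. Control cells, called wild type for *HIF2A* in the labels, and *HIF2A* knockdown cells were kept for 24 h in normoxia (16% O2) and then for 24 h either in normoxia again or in hypoxia (1% O2). The control cells carried an empty shRNA cassette and the HIF2α-KD cells an shRNA against HIF2α, both delivered by a retrovirus with puromycin selection. Several knockdown lines were made, of which the study's text names HIF2α-KD#1 for its normoxic arrays, while the labels name no line. Each condition was 1 culture on 1 array, so condition, culture and array cannot be told apart, and no error can be put on a difference of 2 arrays.

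AP-1 is a dimer of basic leucine zipper (bZIP) proteins. JUN proteins can pair with each other or with FOS proteins, whereas FOS proteins need a JUN partner to bind DNA. The genes of many of these proteins belong to the immediate-early genes, which growth factors, serum and stress switch on within minutes through MAP kinases, serum response factor and ternary complex factors, without new protein synthesis. Their mRNAs are short-lived, so a culture sampled a day after a change shows a late level and not the first burst. EGR1 is a zinc finger factor switched on by the same signals, IER2 is a nuclear regulator of transcription, and IER3 is a short-lived protein that acts in survival and is not itself a transcription factor of the AP-1 type.

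The values were linear intensities, and differences are those of log2(intensity + 16), where the added constant shrinks the differences of dim probe sets. The 95th percentile of 63 reporter probe sets, which match no canine gene, served as the limit of background and lay between 20.6 and 27.2 on the 4 arrays. *EPAS1*, which encodes HIF2α, read 44.6 and 47.9 on the control and HIF2α-KD arrays in normoxia and 116 and 32.6 in hypoxia. This probe set was thus not lower on the normoxic array labelled HIF2α-KD, which is named here by its label. Both normoxic readings were dim, which left limited room for a fall to show. The other *EPAS1* probe set, between 1 and 6.39, lay below background. The study also measured the knockdown of its lines by RT-qPCR, which is not analysed here. Of 21 measured HIF target genes, all were higher in hypoxia in both cell lines, with medians of 1.48 and 1.65 on the log2 scale. The epithelial label was checked on 20 marker genes, of which 15 or 16 lay above background on each array, with *KRT18* brightest at 13257 to 13868. The probe set of the defining marker *CDH1* lay below background in normoxia, at 15.45 and 18.9, and read 119 and 81.4 in hypoxia, with control first. The study measured *CDH1* mRNA by RT-qPCR and its protein, E-cadherin, by Western blot in normoxic MDCK cells. This reading therefore does not show that the gene was silent. Of 8 fibroblast markers 1 or 2 and of 7 endothelial markers 1 lay above background. The fibroblast list summed to between 109 and 222, highest in control cells in hypoxia. Of 8 leukocyte markers 4 or 5 did, at no more than 45.3. The endothelial marker above background, *CDH5*, read between 88.8 and 117. Markers of other cell types thus exceeded the limit in this line. A dim reading above it does not by itself show that a gene was expressed.

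The members fell into bright, dim and undetected genes. *FOS*, *JUN*, *IER2* and *IER3* had a probe set at 482 or more on every array. *EGR1* had one between 72.4 and 142, and *FOSL2* and *JUNB* were dim, between 29.3 and 52.6. *FOSL2* and *JUNB* thus overlapped the leukocyte markers above background, and *EGR1* overlapped *CDH5*. Expression of *FOSL2*, *JUNB* and *EGR1* is therefore less certain than that of the bright members. *FOSB* and *FOSL1* stayed below background on all 4 arrays. Of the 14 probe sets, 10 reached the median of all values, 28.6, on at least 1 array and were kept, and they stand for 7 genes. Intensities of different probe sets are not comparable as levels of mRNA, so the members are compared only across arrays. In RNA of a whole culture, more transcript per cell and more cells with the transcript cannot be told apart.

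**Figure D1:**
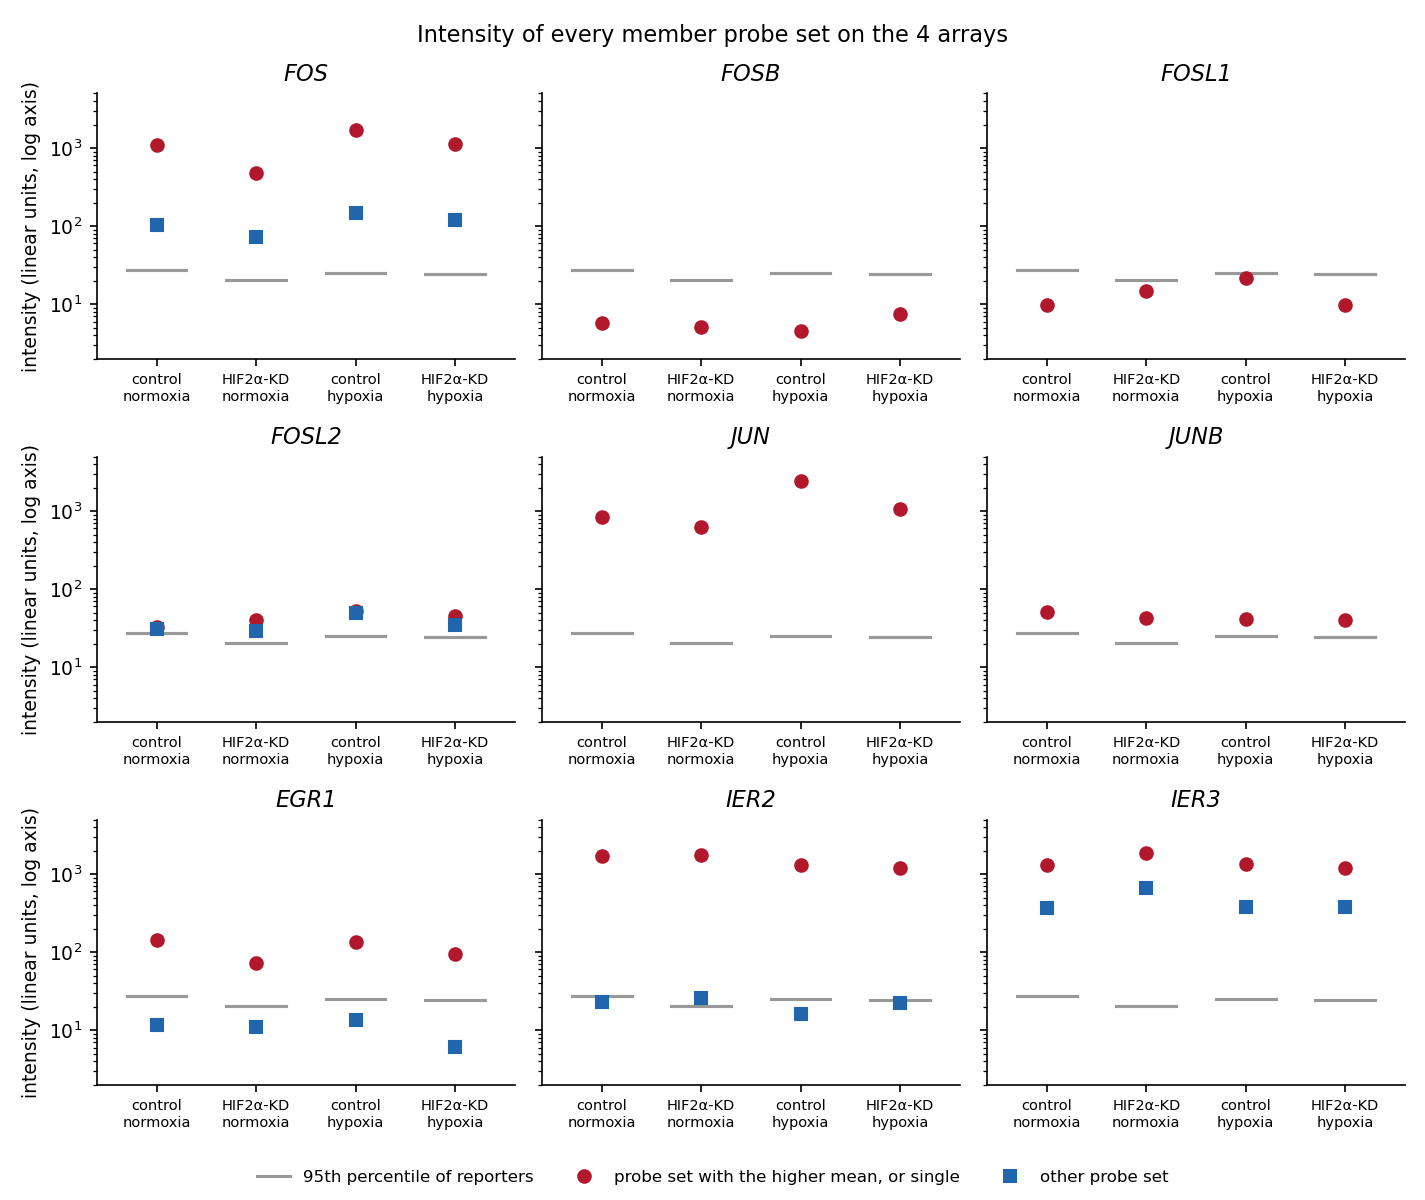
Intensity (linear units, log axis) of each of the 14 member probe sets on the 4 arrays, with 1 panel per gene, 1 point per probe set and array, without error bars because nothing was replicated. Grey bars mark the background limit (95th percentile of the reporters) of each array. *FOS* and *JUN* are highest in control cells in hypoxia and lowest on the normoxic array labelled HIF2α-KD, whereas *FOSB* and *FOSL1* lie below the grey bars.

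*FOS*, the founding partner of JUN in AP-1, read 1081 in control cells in normoxia, 482 on the normoxic array labelled HIF2α-KD, 1718 in control cells in hypoxia and 1141 in HIF2α-KD cells in hypoxia at its brighter probe set. The highest value was 3.56 times the lowest, and the hypoxic array was the higher one in each cell line. Its other probe set read 104, 71.8, 148 and 121 in the same order. Both probe sets thus ranked the control array in hypoxia first and the normoxic array labelled HIF2α-KD last, with all 4 differences in the same direction, but the dimmer one spanned 2.06-fold.

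The size of the *FOS* differences depended on the probe set. Between hypoxia and normoxia, the brighter one differed by 0.66 in control cells and by 1.22 in HIF2α-KD cells, and the dimmer one by 0.45 and 0.65. Between HIF2α-KD and control, the brighter one differed by -1.14 in normoxia and by -0.58 in hypoxia, and the dimmer one by -0.45 and -0.25. The gap of 0.69 between them for HIF2α-KD against control in normoxia was large for this table. Of 4915 genes with at least 2 kept probe sets, 3.48% had a gap as large between their brightest pair, and the median gap was 0.14.

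*FOSL2*, which encodes the FOS relative FRA2, was dim, though above background on all 4 arrays. Its brighter probe set read 33.0 in normoxia and 52.6 in hypoxia in control cells, and 40.0 and 45.1 on the arrays labelled HIF2α-KD. The other one read 31.0 and 48.7 in control cells, and 29.3 and 35.0 on the HIF2α-KD arrays. In control cells both were higher in hypoxia, by 0.49 and 0.46. In HIF2α-KD cells the corresponding differences were 0.13 and 0.17, and for HIF2α-KD against control in normoxia the probe sets had opposite signs, 0.19 and -0.05. The remaining FOS family genes gave no direction. *FOSL1*, which encodes FRA1, read 9.86, 14.7, 21.4 and 9.86, and *FOSB* read 5.76, 5.15, 4.47 and 7.54, all below the limit of background on their arrays.

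*JUN*, which encodes c-JUN and is itself a target of AP-1, had the largest hypoxia difference of the members. Its single probe set read 838 in normoxia and 2422 in hypoxia in control cells, and 621 and 1062 on the arrays labelled HIF2α-KD. The control array in hypoxia stood 3.90-fold above the lowest value. Hypoxia was thus 2.89 times normoxia in control cells and 1.71 times in HIF2α-KD cells, or 1.51 and 0.76 on the log2 scale. Against control, HIF2α-KD was lower by a log2 difference of -0.42 in normoxia and of -1.18 in hypoxia. *JUN* had no other probe set against which these sizes could be read. The fibroblast marker *PDGFRA* had differences of the same sign in hypoxia, at 1.76 in control cells, 0.88 in HIF2α-KD cells and -0.81 between them, with intensities of 31.5 and 145 in control cells and 33.8 and 75.7 on the HIF2α-KD arrays, and its part in the *JUN* values was not tested.

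*JUNB*, a JUN relative that can oppose c-JUN at some genes, was dim and nearly level. It read 50.2, 42.1, 41.9 and 40.1 on the 4 arrays, in the order of control and HIF2α-KD in normoxia and then in hypoxia. Its 4 log2 differences lay between -0.19 and -0.04, and against normoxia it was not higher in hypoxia in either cell line, unlike *JUN*.

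*EGR1* differed more between the cell lines than between the oxygen levels. Its brighter probe set gave 142 and 133 in control cells in normoxia and hypoxia, and 72.4 and 95.8 on the arrays labelled HIF2α-KD. HIF2α-KD was lower by a log2 difference of -0.84 in normoxia and of -0.42 in hypoxia, and 0.983% of all kept genes lay as low in normoxia. Hypoxia differed from normoxia by -0.08 in control cells and by 0.34 in HIF2α-KD cells. The other *EGR1* probe set, between 6.09 and 13.6, lay below background.

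*IER2* was lower in hypoxia in both cell lines. Its bright probe set read 1725 and 1753 in normoxia and 1299 and 1190 in hypoxia, with the control array first in each pair. The 2 hypoxic values lay below the 2 normoxic ones, with log2 differences of -0.40 in control cells and -0.55 in HIF2α-KD cells. Between the cell lines it differed by 0.02 and -0.12. Its other probe set exceeded the limit of background on 1 array only, the normoxic one labelled HIF2α-KD, and gave no direction.

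*IER3* stood out on a single array. Its brighter probe set read 1314 and 1337 in control cells in normoxia and hypoxia, and 1856 and 1211 on the arrays labelled HIF2α-KD. The other one read 373 and 382, and 656 and 378. Both were highest on the normoxic array labelled HIF2α-KD, above control by 0.49 and 0.79 on the log2 scale. In control cells the hypoxia difference was 0.02 and 0.03. In HIF2α-KD cells it was -0.61 and -0.77, and it involves the normoxic array whose *EPAS1* value was not below control.

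The first question of the design is what hypoxia did in control cells. *JUN* alone of the 7 members was at least 2-fold higher, where 3.04% of all 9766 kept genes were, and none was 2-fold lower, where 0.543% were. *FOS* and *FOSL2* came next at 0.66 and 0.49, and *IER2* was lowest at -0.40. Of all kept genes, 1.01% lay as high as *JUN* and 8.10% as high as *FOS*. The member median was 0.02, against 0.03 for all genes.

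In HIF2α-KD cells the order of *FOS* and *JUN* was turned at the brighter *FOS* probe set. The dimmer one, at 0.65, stayed below *JUN*. *FOS* alone was at least 2-fold higher in hypoxia, where 1.38% of the kept genes were, and none was 2-fold lower, where 0.42% were. *JUN* followed at 0.76, which 2.83% of all genes reached. *IER3* and *IER2* were lowest, at -0.61 and -0.55. The member median was 0.13, against 0.02 for all genes. The call of *FOS* rests on its brighter probe set, and with the mean of both probe sets its difference was 0.93.

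**Figure D2:**
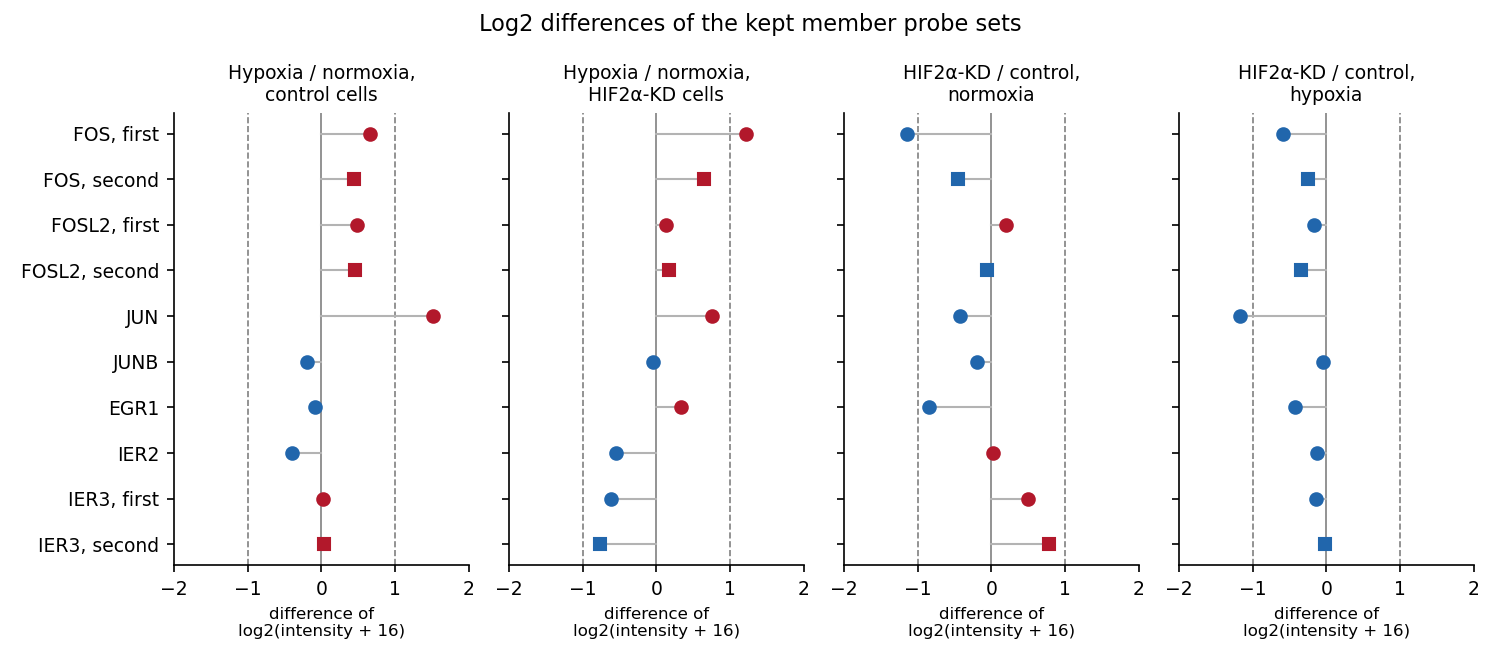
Difference of log2(intensity + 16) for the 10 kept member probe sets in the 4 comparisons. Circles are the brighter or single probe set of a gene and squares the dimmer one, red is above 0 and blue below, and dashed lines mark a 2-fold difference. *JUN* passes the line in control cells in hypoxia (1.51) and for HIF2α-KD in hypoxia (-1.18). The brighter *FOS* probe set passes it in HIF2α-KD cells in hypoxia (1.22) and for HIF2α-KD in normoxia (-1.14). Both *JUN* values include the control array in hypoxia, and both *FOS* values the normoxic array labelled HIF2α-KD.

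The second question is how the HIF2α-KD arrays compared with control at a fixed oxygen level. These comparisons share arrays with the hypoxia comparisons. A high control array in hypoxia by itself gives a higher value in hypoxia in control cells and a lower one for HIF2α-KD in hypoxia. Likewise, a low normoxic array labelled HIF2α-KD gives a higher hypoxia value in HIF2α-KD cells and a lower one for HIF2α-KD in normoxia. Such paired results are not independent. In normoxia *FOS* was at least 2-fold lower, where 0.543% of all genes were, and no member was 2-fold higher, where 0.614% were. *EGR1* (-0.84) and *JUN* (-0.42) followed, and *IER3* (0.49) was highest. The member median was -0.19, against -0.04 for all genes. With the mean of both probe sets the *FOS* difference was -0.80, short of 2-fold.

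In hypoxia all 7 members lay below 0 on the HIF2α-KD array, where 44.3% of all genes lay above 0. *JUN* was at least 2-fold lower, where 0.881% of all genes were, and no member was 2-fold higher, where 0.102% were. *FOS* (-0.58) and *EGR1* (-0.42) came next, and the other 4 lay between -0.17 and -0.04. The member median was -0.17, against -0.04 for all genes. *FOS*, *JUN* and *EGR1* were the lowest 3 members in both oxygen levels. In hypoxia *EPAS1* was lower on the HIF2α-KD array and in normoxia it was not. The normoxic differences thus rest on an array on which the targeted gene's probe set, dim in normoxia, was not lower.

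**Figure D3:**
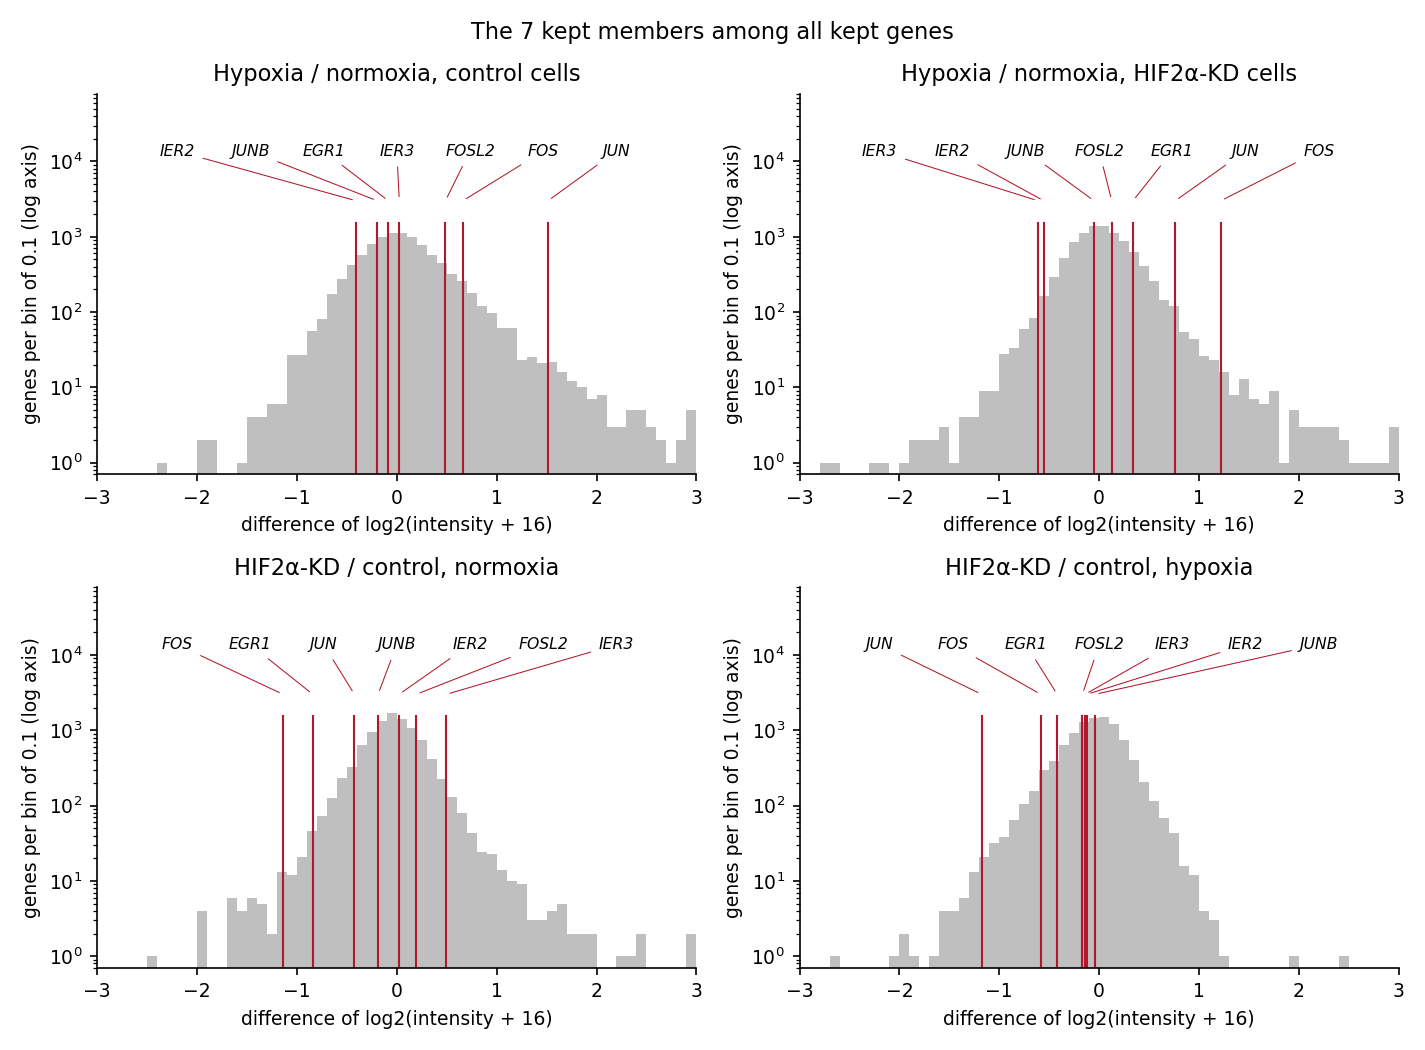
Number of genes (log axis) in bins of 0.1 of the difference of log2(intensity + 16) for all 9766 kept genes in the 4 comparisons, with values past 3 in the end bins. Red lines mark the 7 kept members by name. *JUN* and *FOS* lie on the higher side for hypoxia and on the lower side for HIF2α-KD. *IER3* and *IER2* lie in the lower flank for hypoxia in HIF2α-KD cells. For HIF2α-KD in normoxia *EGR1* lies in the lower flank and *IER3* in the upper one.

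A fit over all 4 arrays (limma with oxygen level and cell line as additive terms, 1 residual degree of freedom, Benjamini-Hochberg adjustment over all genes) gave the only test. Its SE and p-values borrow variance across genes, and with 1 culture per condition they measure no spread between cultures. The residual also holds any departure from additivity. The oxygen term was positive for *FOS* and *JUN*. The fitted difference was 0.94 (SE 0.17) for *FOS*, with a limma adjusted p = 0.0439, and 1.14 (SE 0.20) for *JUN*, with a limma adjusted p = 0.0375, and each was higher in 2 of 2 pairs. Thus 2 of 7 members were called at 0.05, where 2.88% of all genes were. *IER2* had a fitted difference of -0.48 (SE 0.13) and a limma adjusted p = 0.108, and was not called. At an unadjusted p under 0.05 these 3 members passed, where 20.6% of all genes did. The calls of *FOS* and *JUN* lay close to the threshold. Over 10 alternatives the adjusted p of *FOS* ran from 0.0194 to 0.111 and that of *JUN* from 0.0130 to 0.107, and both were lost with cyclic loess normalization, without the intensity filter and without the mean-dependent prior variance. The call of *FOS* was also lost when its 2 probe sets were averaged, with a fitted difference of 0.74 and a limma adjusted p = 0.0713.

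For the knockdown term limma called 0 of 7 members, and it called 0% of all genes. *FOS* had a fitted difference of -0.86 (SE 0.17, limma adjusted p = 0.190), *JUN* of -0.80 (SE 0.20, limma adjusted p = 0.259) and *EGR1* of -0.63 (SE 0.16, limma adjusted p = 0.275). At an unadjusted p under 0.05 these 3 of 7 members passed, where 9.63% of all genes did, and each was lower in 2 of 2 pairs. The fitted differences of *FOSL2*, *JUNB*, *IER2* and *IER3* lay between -0.12 and 0.18. The term averages the normoxic pair, in which *EPAS1* was not lower, with the hypoxic pair.

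The knockdown difference in hypoxia minus that in normoxia, which equals the hypoxia difference in HIF2α-KD cells minus that in control cells, could not be tested with 1 array per condition. It was 0.56 for *FOS* and 0.42 for *EGR1*, and -0.75 for *JUN*, -0.63 for *IER3* and -0.36 for *FOSL2*. *FOS* and *JUN* thus departed from additivity in opposite directions, but the *FOS* value is that of its brighter probe set, and the other one gave 0.20. Across all kept genes the SD of this quantity was 0.40, and 5.85% of genes departed at least as far as *JUN* and 12.4% as far as *FOS*.

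The other genes around AP-1 were read from 5 lists, which share some genes. Each was read at its brightest kept probe set only. Some, such as *ERRFI1*, *DUSP1*, *KLF4* and *PPP1R15A*, have other kept probe sets, whose agreement was not examined. Of 45 other immediate-early genes listed, 29 were kept. In hypoxia 10 of them were at least 2-fold higher and none 2-fold lower in control cells, with a median of 0.69. Of all kept genes, 3.04% and 0.543% were, with a median of 0.03. In HIF2α-KD cells 1 was 2-fold higher in hypoxia, where 1.38% of all genes were, with a median of 0.04 against 0.02. *PTGS2*, which encodes the inducible cyclooxygenase, read 2003, 6408, 11974 and 6191 in the order of control and HIF2α-KD in normoxia and then in hypoxia. *KLF4*, a zinc finger factor of epithelial differentiation, read 54.3, 52.3, 230 and 99.3. *DUSP5*, a nuclear phosphatase of ERK, read 111, 103, 415 and 192. *KLF4* and *DUSP5* share with *JUN* the order of their hypoxia differences, at 1.81 and 1.77 in control cells against 0.76 and 0.80 in HIF2α-KD cells. *PPP1R15A*, a stress-induced phosphatase subunit, had the lowest knockdown difference of the list in hypoxia, -1.94. There 7 of the 29 genes were at least 2-fold lower, where 0.881% of all genes were. This count and that of hypoxia in control cells share the control array in hypoxia.

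Of the other bZIP genes that can pair with FOS or JUN proteins, 7 of 15 were kept. All 7 lay below 0 for HIF2α-KD in normoxia and 6 in hypoxia, with medians of -0.31 and -0.29, and none was 2-fold lower. Of all kept genes, 43.5% lay above 0 in normoxia and 44.3% in hypoxia, with a median of -0.04 in each. At least 2-fold lower were 0.543% and 0.881% of them. *ATF3*, a stress-induced partner of JUN, read 137, 79.9, 310 and 158 on the 4 arrays. It was higher in hypoxia by 1.09 in control cells and by 0.86 in HIF2α-KD cells, and is also among the other immediate-early genes. *ATF4*, the factor of the amino acid response, was bright and lower on the arrays labelled HIF2α-KD, by -0.77 in normoxia and by -0.41 in hypoxia. *BATF3* differed by -0.67 in normoxia and by 0.22 in hypoxia, and *ATF2*, a partner of JUN, by -0.31 and -0.29. *JDP2*, a repressor of AP-1, neighbours *FOS* directly in the RefSeq annotation of UU_Cfam_GSD_1.0, and it was dim, at 35.7, 29.3, 55.1 and 36.7. It was named for that position after its values were seen.

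Upstream of the members, 21 of 27 kinases and factors were kept and none differed 2-fold in any comparison. Between 0.983% and 3.58% of all genes did. *SRF*, the serum response factor that acts on *FOS* and *EGR1*, read 439 and 498 in control cells in normoxia and hypoxia, and 731 and 448 on the arrays labelled HIF2α-KD. Its value was thus highest on the array on which *FOS* and *EGR1* were lowest, and its difference from control there was 0.71. The ternary complex factor genes *ELK4* and *ELK1* differed in hypoxia in control cells by 0.88 and -0.78, and *MAP3K1*, a kinase upstream of JNK, by -0.69. The list medians lay between -0.13 and 0.17.

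Of 16 genes of feedback inhibitors of the ERK pathway, 10 were kept. In hypoxia 3 were at least 2-fold higher in control cells, *ERRFI1* (2.11), *DUSP5* (1.77) and *DUSP1* (1.62), and *ERRFI1* alone in HIF2α-KD cells (1.99). Of all kept genes, 3.04% and 1.38% were. *ERRFI1* encodes an inhibitor of the EGF receptor, and *DUSP1* a nuclear phosphatase of MAP kinases that is itself an immediate-early gene. The same 3 genes were at least 2-fold lower on the HIF2α-KD array in hypoxia, by -1.06, -1.05 and -1.08, where 0.881% of all genes were. This result and that in control cells both include the control array in hypoxia. *DUSP10*, a phosphatase of JNK and p38, differed by 0.90 in control cells and by -0.19 in HIF2α-KD cells.

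Genes known as targets of AP-1 did not share the pattern of *FOS* and *JUN* in normoxia. Of 29 such genes 18 were kept, and the list was made with several large differences among them already known, so its counts are a description. In control cells all 18 were higher in hypoxia and 10 at least 2-fold, with a median of 1.06. Of all kept genes, 53.2% were higher and 3.04% at least 2-fold. On the normoxic array labelled HIF2α-KD, *FOS*, *JUN* and *EGR1* were lower than control. There 16 of the 18 were higher, 9 at least 2-fold, with a median of 0.83. Of all kept genes, 43.5% were higher there and 0.614% at least 2-fold. On the HIF2α-KD array in hypoxia, 16 were lower and 2 of them at least 2-fold, with a median of -0.61. Of all kept genes, 44.3% were higher there and 0.881% at least 2-fold lower. *MMP13*, a collagenase gene, read 526, 4263, 1181 and 860 on the 4 arrays. *CCL2*, a chemokine gene, read 982, 7958, 2270 and 1292, and the gelatinase gene *MMP9* read 29.2, 228, 69.6 and 58.9. These 3 were highest on the array on which both *FOS* and *JUN* were lowest. *PTGS2*, also on this list, was highest in control cells in hypoxia, as *FOS* and *JUN* were. The rest of the list held genes of both kinds, named here after their values were seen. *PLAU* and *LAMA3* were highest on the normoxic array labelled HIF2α-KD, and *INHBA* and *ITGA2* in control cells in hypoxia. *VEGFA*, named here after its values were seen, was the only gene of the list at least 2-fold lower on the normoxic array labelled HIF2α-KD (-1.41).

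**Figure D4:**
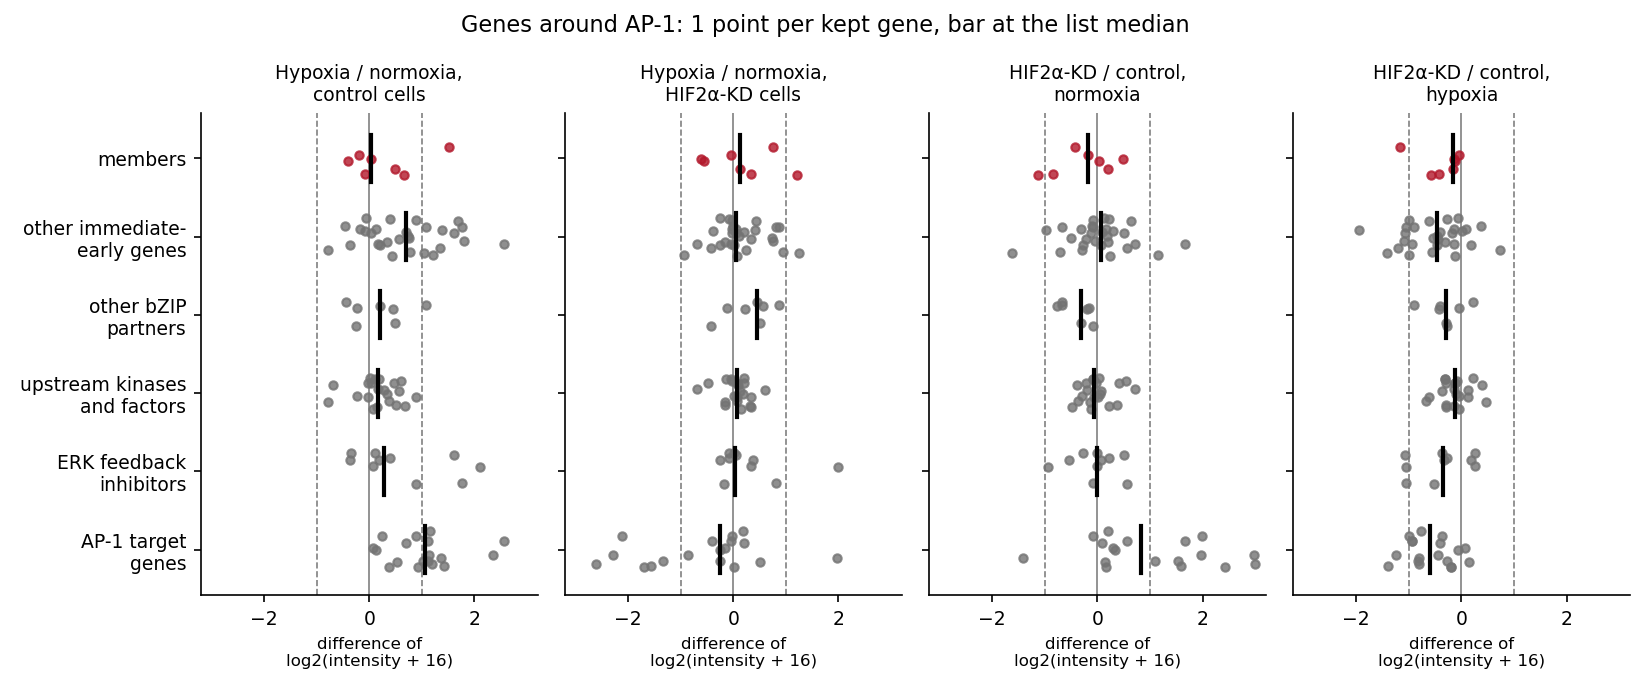
Difference of log2(intensity + 16) in the 4 comparisons for the 7 kept members (red) and the kept genes of 5 related lists (grey), with 1 point per gene and a black bar at the list median. Dashed lines mark a 2-fold difference. The AP-1 targets have medians of 1.06 in control cells in hypoxia and 0.83 on the normoxic array labelled HIF2α-KD, where the member median is -0.19.

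The genes nearest to *FOS* and *JUN* over the 4 arrays were found by Euclidean distance of log2(intensity + 16) centred on each gene's mean. Nearest to *JUN* were *MSN*, which encodes the membrane-actin linker moesin (distance 0.15), *MAP3K2*, a MAP kinase kinase kinase (0.22), and *KMT5A*, a histone H4 methyltransferase (0.23). *MSN* read 328 and 265 in normoxia and 974 and 474 in hypoxia, with control first. Nearest to *FOS* were *THSD1* (0.23), *ZNF106* (0.24) and *EIF4EBP1*, which encodes an inhibitor of translation initiation (0.26). *EIF4EBP1* read 1476 and 832 in normoxia and 2477 and 1578 in hypoxia. These are distances over 4 arrays among 9766 genes and carry no p-value.

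**Figure D5:**
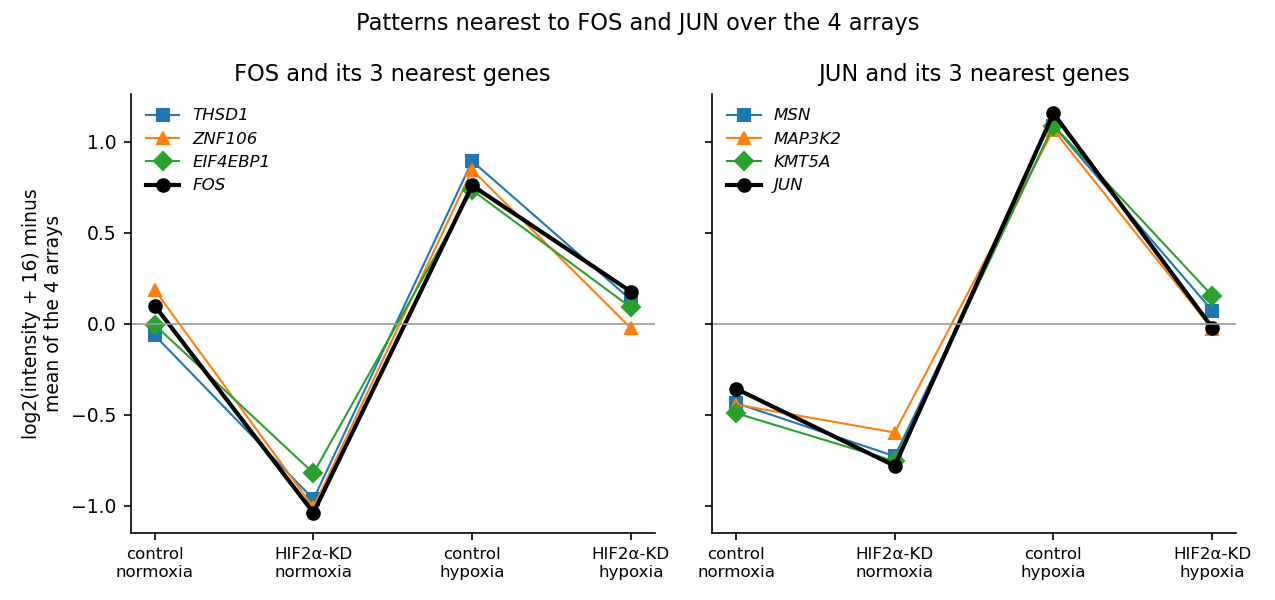
Centred log2(intensity + 16) of *FOS* and *JUN* (black) and of the 3 genes nearest to each (colours) on the 4 arrays, with 1 point per array and lines only to guide the eye. *FOS* is lowest on the normoxic array labelled HIF2α-KD, and *JUN* stands above the other 3 arrays in control cells in hypoxia.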

How the data were processed

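RNA of MDCK cells was labelled by the authors with biotin by the 3' IVT Express protocol and hybridised to Affymetrix canine arrays. The deposited table gives a linear intensity per probe set and array, made by the authors, and how it was summarized, background corrected and scaled, and with which software, is not given in the sources used here. Of 42924 probe sets, 29254 carry 1 symbol in the platform annotation. Those whose highest intensity reached 28.6 (the median of all values) were kept, and the kept probe set with the highest mean stood for a gene, which left 9766 genes. Differences of log2(intensity + 16) were counted at 2-fold. The comparisons of pairs have 1 array per group and no test. limma was fitted to all 4 arrays with additive terms and a mean-dependent prior. The code was also run on simulated data with additive knockdown shifts, equal noise and no oxygen effect. That run says nothing of the p-values of genes that depart from additivity. The number of arrays limits the precision. The members, lists and alternatives were chosen with earlier results of these data known. Named were all members, *EPAS1*, up to 4 genes per list with the largest difference in any comparison, and the 3 genes nearest to each member past 2-fold. Alternatives were normalization (quantile, median or cyclic loess), the filter (none, or the 75th percentile of all values), averaging all kept probe sets per gene, pseudocounts of 1 and 64, a 1.5-fold threshold, and limma without a trend or with robust moderation. R 4.3.3, limma 3.58.1, Python 3.11.15, numpy 2.4.6, pandas 2.3.3 and matplotlib 3.10.9 were used. No sequence of the members was used here.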

Additional observations from a re-analysis of the deposited data

Results flagged for a closer look

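Among the genes named for the size of their difference, 2 that are no members were at least 2-fold higher in hypoxia in control cells and at least 2-fold lower in HIF2α-KD cells. For *CCL2*, hypoxia differed from normoxia by 1.20 in control and by -2.61 in HIF2α-KD cells, and for *MMP13* by 1.14 and -2.29. They were not alone on the AP-1 target list, where *PLAU* (1.42 and -1.57) and *LAMA3* (1.02 and -1.34) did the same. The share of all kept genes with such a reversal was not counted. These differences between the cell lines were not tested, and all include the normoxic array labelled HIF2α-KD. No member differed 2-fold in opposite directions.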

How the results depend on the processing

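The counts of members at 2-fold stayed at 1 in all 4 comparisons under quantile, cyclic loess and median normalization, both other filters and both pseudocounts. Averaging all kept probe sets per gene, they became 0 for hypoxia in HIF2α-KD cells and for HIF2α-KD in normoxia, where *FOS* differed by 0.93 and -0.80. At 1.5-fold they became 2 (*FOS*, *JUN*) for hypoxia in control cells and 3 (with *IER3*) in HIF2α-KD cells. Of all kept genes, 14.5% and 8.16% passed 1.5-fold there. For HIF2α-KD the counts became 2 (*FOS*, *EGR1*) in normoxia and stayed at 1 in hypoxia, where 6.01% and 6.54% of all genes passed. Members called for oxygen by limma fell from 2 to 0 with cyclic loess, without a filter (where 15115 genes are tested) and without a trend, and to 1 (*JUN*) with averaged probe sets. The cause was not tested. For the knockdown term 0 members were called under all 10 alternatives. Over all genes the oxygen calls ran from 70 to 495, against 281, and the knockdown calls from 0 to 21, against 0. No called difference of a member reversed. Without any 1 array the additive fit has no residual degree of freedom. No paired analysis was possible because no condition has replicates that a number could pair, though the additive fit already takes each term within both levels of the other. *FOSB* and *FOSL1*, below background, could not be read at this signal.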
